A study of Mus musculus with 6 samples.

Results

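The Cyp4 family of cytochrome P450 enzymes was examined in mouse liver, apart from Cyp4a10 and Cyp4a14, which are known as targets of the fatty acid receptor PPARA. The members were chosen by name from the 55357 genes of the count file, and all 8 were found: Cyp4a12a, Cyp4a12b, Cyp4a31, Cyp4a32, Cyp4f13, Cyp4f14, Cyp4f15 and Cyp4v3. Male wild-type C57BL6/J mice aged 8 to 9 weeks received vehicle (2.5% Tween-80) or esculetin, a coumarin derivative, by daily gavage for 7 days. Every mouse ate a control diet with 10% of kcal from fat for 4 days and then a high-fat diet (HFD) with 60% for 3 days, so both groups were HFD-fed and no library without HFD was compared here. The groups had 3 libraries each, and a library pooled the livers of 2 mice, so the spread given below is that between pools. For the dose, titles say 180 mg/kg/d and the count columns are marked T180, where the treatment field says 90 mg/kg/d. The group is named here by the compound alone.

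Cyp4 enzymes put a hydroxyl group on the last carbon of a fatty acid (omega-hydroxylation), using electrons passed on by cytochrome P450 reductase. The hydroxylated acid can be oxidised to a dicarboxylic acid, which peroxisomes shorten, and the same chemistry makes 20-HETE from arachidonic acid and ends the action of leukotriene B4. In liver these genes are expressed mainly in hepatocytes, and in mice the Cyp4a12 genes are higher in males.

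All 8 members carry the heme-binding signature of P450 enzymes once in their coding sequence. The 10 codons of the signature are shown because they mark each gene as a P450 and show how alike the members are at the catalytic site. They were read 5′ to 3′ on the coding strand of the GENCODE transcripts of GRCm39, with the codon of the cysteine that binds the heme iron in capitals.
Cyp4a12a: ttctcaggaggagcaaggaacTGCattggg
Cyp4a12b: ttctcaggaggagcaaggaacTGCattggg
Cyp4a31: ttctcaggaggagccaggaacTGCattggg
Cyp4a32: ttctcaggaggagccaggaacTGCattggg
Cyp4f13: ttctcagcggggaccaggaacTGCatagga
Cyp4f14: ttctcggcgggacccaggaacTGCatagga
Cyp4f15: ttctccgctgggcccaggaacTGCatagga
Cyp4v3: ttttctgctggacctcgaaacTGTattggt
Cyp4a12a and Cyp4a12b had the same 30 bases, as did Cyp4a31 and Cyp4a32. Cyp4v3 was the only one of the 8 with TGT in place of TGC as the cysteine codon. Over the whole aligned coding sequence Cyp4v3 was 58.0% to 61.6% identical to the other members, whereas Cyp4f14 and Cyp4f15 were 82.1% identical and Cyp4f13 and Cyp4f14 were 78.3% identical.

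The Cyp4a members are close copies, which bears on how well their counts can be told apart. Cyp4a12a (chr4:115156243-115190012, + strand, GRCm39) and Cyp4a12b (chr4:115268820-115296235, + strand) differed at 23 of 1524 coding bases. Bases 624 to 683 of the coding sequence, counted from 1 at the start codon, are shown with the 4 bases that differ in capitals.
Cyp4a12a: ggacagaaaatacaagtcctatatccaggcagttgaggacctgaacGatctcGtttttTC
Cyp4a12b: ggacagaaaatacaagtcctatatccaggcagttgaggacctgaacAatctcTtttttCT
A stretch of 150 bases, the length of one read, was found unchanged in the other gene for 25.6% of the positions in the Cyp4a12a transcript and 25.9% of those in Cyp4a12b. Cyp4a31 (chr4:115420818-115436212, + strand) and Cyp4a10 differed at 52 of 1527 coding bases, and bases 106 to 165 are shown with the 6 that differ in capitals.
Cyp4a31: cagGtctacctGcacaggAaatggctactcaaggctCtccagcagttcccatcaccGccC
Cyp4a10: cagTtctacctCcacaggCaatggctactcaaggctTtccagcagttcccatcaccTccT
Cyp4a32 (chr4:115458134-115479704, + strand), whose annotated coding sequence is shorter at 1209 bases, differed from Cyp4a10 at 25 of these bases. Of its exonic bases, 657 are also covered by Cyp4b1 on the opposite strand, and the library kit does not mark strand. Stretches of 150 bases shared with another Cyp4 gene, the only genes searched, made up 4.15% of Cyp4a31 and 7.36% of Cyp4a32. No such stretch was found for Cyp4f13 (chr17:33140972-33166434, - strand), Cyp4f14 (chr17:33120541-33136561, - strand), Cyp4f15 (chr17:32904421-32922640, + strand) or Cyp4v3 (chr8:45757972-45786330, - strand). Cyp4v3 shares 313 exonic bases with Gm45753, which had between 0 and 2 counts in each library.

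The copies extend upstream of the Cyp4a12 genes. A stretch upstream of each transcript start is shown, chr4:115156017-115156242 for Cyp4a12a and chr4:115268571-115268797 for Cyp4a12b (GRCm39, + strand), because Cyp4a12a, the one called member, and its copy share almost all of it. Its last base lies 1 base before the transcript start in Cyp4a12a and 24 bases before it in Cyp4a12b. Of 227 aligned columns 7 differed, 1 of them a gap, and the differing bases are in capitals.
Cyp4a12a: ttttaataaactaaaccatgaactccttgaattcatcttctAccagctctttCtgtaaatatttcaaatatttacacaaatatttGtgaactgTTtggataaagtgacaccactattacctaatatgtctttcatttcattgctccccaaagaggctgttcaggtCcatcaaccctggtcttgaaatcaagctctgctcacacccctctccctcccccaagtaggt
Cyp4a12b: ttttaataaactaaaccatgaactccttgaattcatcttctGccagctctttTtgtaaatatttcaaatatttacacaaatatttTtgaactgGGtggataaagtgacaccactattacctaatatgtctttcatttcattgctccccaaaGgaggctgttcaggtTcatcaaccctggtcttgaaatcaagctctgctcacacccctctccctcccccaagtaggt

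The libraries held between 27957713 and 34920922 counts, and all esculetin totals exceeded all vehicle totals. Values below are CPM, that is, each count relative to its library's total after edgeR's TMM scaling, whose factors lay between 0.979 and 1.02, and 3 counts corresponded to 0.0865 to 0.109 CPM. All 8 members passed edgeR's filter on low counts, with 14433 genes tested in all. Calls required a fold above 1.5 together with an unadjusted p-value below 0.05, and adjusted p-values are Benjamini-Hochberg values over all genes tested. No library stood apart in its correlation with the others, whose median per library lay between 0.981 and 0.984 on log2 CPM. The 10 hepatocyte markers summed to 103303 to 108513 CPM in vehicle and 99803 to 108462 CPM in esculetin libraries, and none had an unadjusted p-value under 0.05.

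Of the 8 members, 1 was called, Cyp4a12a, which was lower in the esculetin group. Over all genes tested 3.13% were called, and 1.76% were called lower. Cyp4a12a and Cyp4v3 had an unadjusted p-value under 0.05, which 11.9% of all genes had. None of the 8 had an adjusted p-value under 0.05 in edgeR, DESeq2 or limma-voom, compared with 0.0416% of all genes in edgeR, and without the filter on low counts edgeR gave 2, Cyp4a12a and Cyp4a12b, where 1.94% of 24638 genes passed. The groups did not overlap for 1 member, Cyp4v3, and for 17.4% of all genes. The median log2 fold change of the members was 0.048, beside -0.0080 over all genes tested, and 5 of 8 were above 0, as were 48.5% of all genes. The summed level of the 8 members was 1179, 1347 and 1372 CPM in vehicle and 1087, 1111 and 1236 CPM in esculetin libraries. These ranges overlapped.

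**Figure D1:**
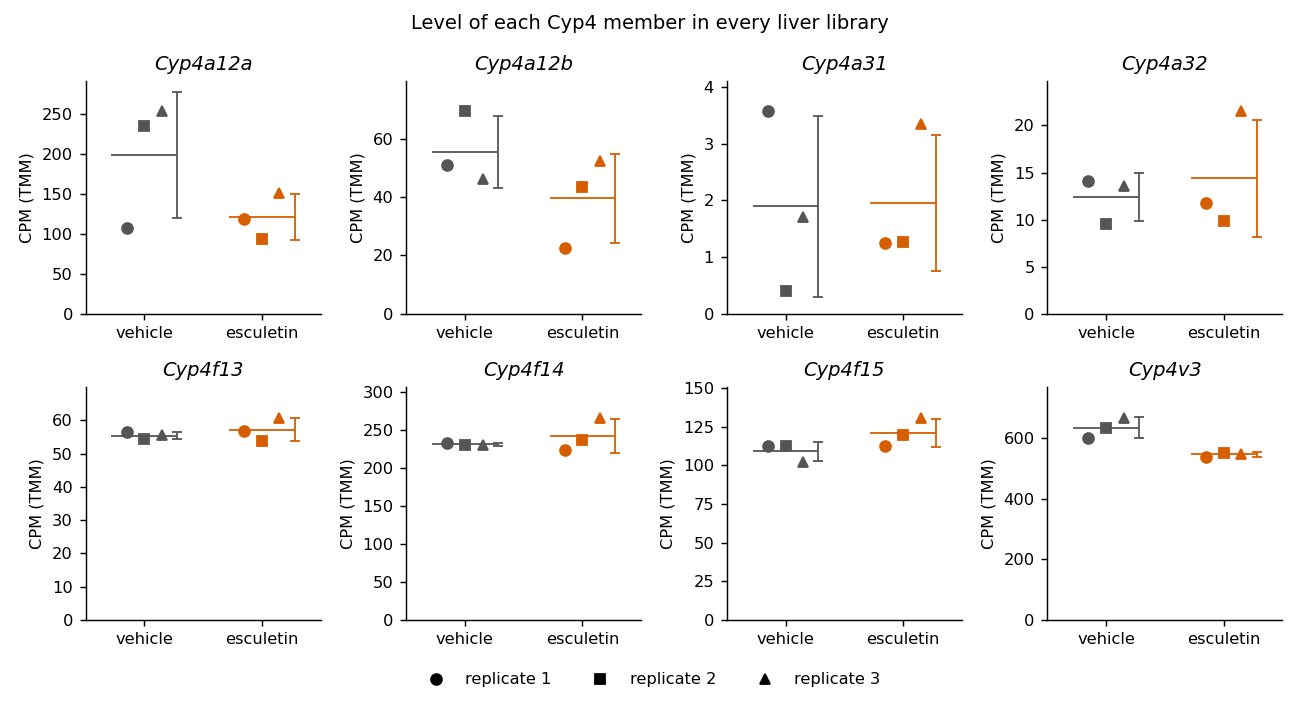
Level of each member in CPM (vertical axes, from 0) in the 3 vehicle (grey) and 3 esculetin (orange) libraries, with the group mean as a line and the SD as a bar. Cyp4v3 is the one member whose groups do not overlap, at 600 to 669 CPM in vehicle and 539 to 553 CPM in esculetin libraries, and the Cyp4a members spread more widely within groups than the Cyp4f members.

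Cyp4a12a encodes the main 20-HETE-forming arachidonate hydroxylase of the male mouse. Its level was 108, 235 and 254 CPM in vehicle replicates 1, 2 and 3 and 119, 93.1 and 151 CPM in esculetin replicates 1, 2 and 3. Vehicle replicates 2 and 3 lay above every esculetin library, while vehicle replicate 1 lay within the esculetin range, so the groups overlapped. The group means were 199 ± 79.4 CPM and 121 ± 29.1 CPM (SD, n = 3). The log2 fold change was -0.72 (SE 0.28), a fold of 0.608 with a 95% interval from 0.393 to 0.941, with an unadjusted p-value of 0.0296 and an adjusted p-value of 0.363 in edgeR. The call depended on single libraries. It was lost without vehicle replicate 2 (-0.58), without vehicle replicate 3 (-0.50), without esculetin replicate 1 (-0.70) and without esculetin replicate 2 (-0.56). Without vehicle replicate 1 the log2 fold change was -1.01 with an adjusted p-value of 0.0535, where 3.35% of all genes were called and 1.68% were called lower. The unadjusted p-value was 0.0652 in DESeq2 and 0.0515 in limma-voom, so neither called it.

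Cyp4a12b, the neighbouring copy with the same known activity, was at 50.9, 69.5 and 46.1 CPM in vehicle and 22.7, 43.6 and 52.5 CPM in esculetin libraries. Esculetin replicate 1 was the lowest and vehicle replicate 2 the highest, and esculetin replicate 3 lay inside the vehicle range. Its log2 fold change was -0.49 (SE 0.26; 95% interval -1.07 to 0.099), with an unadjusted p-value of 0.0936. Without esculetin replicate 3 it was -0.74 and passed the call with an unadjusted p-value of 0.0192, whereas it was -0.21 without esculetin replicate 1 (unadjusted p-value 0.248) and -0.29 without vehicle replicate 2 (unadjusted p-value 0.339). Since the authors' handling of reads that map to both copies is not given in the sources used here, the counts of the pair were also added up. The sum was 159, 305 and 300 CPM in vehicle and 142, 137 and 204 CPM in esculetin libraries, again with vehicle replicate 1 inside the esculetin range. The sum had a log2 fold change of -0.66 (SE 0.24), an unadjusted p-value of 0.0187 and an adjusted p-value of 0.313.

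The balance between the copies was also compared. Cyp4a12b made up 32.0%, 22.8% and 15.4% of the pair's counts in vehicle replicates 1, 2 and 3. In esculetin replicates 1, 2 and 3 it made up 16.0%, 31.9% and 25.8%. The 95% Wilson intervals, which cover counting error only, ran from 30.7% to 33.4% at the highest share and from 14.6% to 16.2% at the lowest. The means were 23.4% ± 8.35 and 24.6% ± 8.02 (SD, n = 3), with a two-sided exact permutation p-value of 0.8, where 0.1 is the smallest that 3 against 3 libraries allow.

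**Figure D2:**
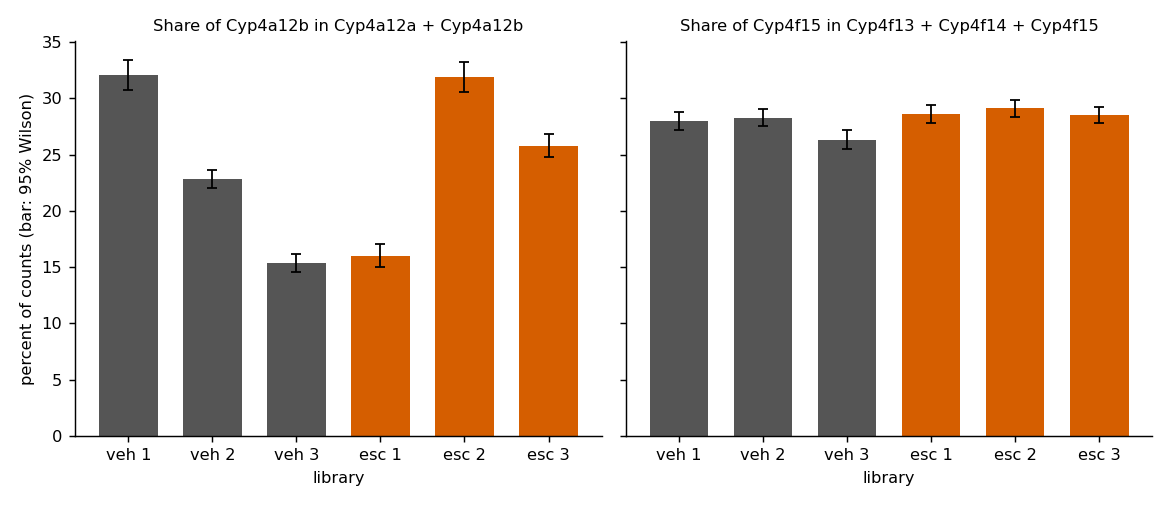
Share in percent of Cyp4a12b in the counts of the Cyp4a12 pair (left) and of Cyp4f15 in the counts of the 3 Cyp4f members (right) in each library (veh, vehicle; esc, esculetin), with 95% Wilson intervals that cover counting error only. The left bars run from 15.4% to 32.0% with no separation of the groups, and the right bars from 26.3% to 29.1%.

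Cyp4a31 and Cyp4a32 are mouse copies close to Cyp4a10. Cyp4a31 was the lowest member, at 3.57, 0.399 and 1.71 CPM in vehicle and 1.24, 1.27 and 3.34 CPM in esculetin libraries, which corresponded to 105, 13 and 47 counts and to 40, 44 and 112 counts. Vehicle replicate 1 and esculetin replicate 3 were the high libraries and vehicle replicate 2 was the low one. The fold was 1.04 with a 95% interval from 0.386 to 2.78, so a change past 1.5-fold in either direction lay inside the interval. Its log2 fold change was 0.051 (SE 0.64), whose sign turned without vehicle replicate 2 (-0.44), without vehicle replicate 3 (-0.0095) or without esculetin replicate 3 (-0.58). It rose to 0.91 without vehicle replicate 1.

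Cyp4a32 was at 14.1, 9.51 and 13.6 CPM in vehicle and 11.8, 9.83 and 21.5 CPM in esculetin libraries. Esculetin replicate 3 was the highest and vehicle replicate 2 the lowest. Its log2 fold change was 0.21 (SE 0.27, unadjusted p-value 0.447), and without esculetin replicate 3 it was -0.20. Cyp4b1, which overlaps its exons on the other strand, had 357 to 484 counts per library and was at 12.2 to 14.0 CPM in all 6. The highest Cyp4a32 library exceeded the lowest 2.26-fold. The part of reads from the shared bases in the level of Cyp4a32 was not tested.

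The paralogs left out of the set varied more. Cyp4a10 was at 48.1, 6.38 and 6.45 CPM in vehicle and 13.6, 25.3 and 75.1 CPM in esculetin libraries. Cyp4a14 was at 37.4, 3.56 and 2.08 CPM in vehicle and 6.59, 12.7 and 57.1 CPM in esculetin libraries. Vehicle replicate 1 and esculetin replicate 3 were the high libraries for both genes, as for Cyp4a31, and neither gene was called, with unadjusted p-values of 0.278 and 0.420. Counts of Cyp4a10, Cyp4a31 and Cyp4a32 added up gave 65.8, 16.3 and 21.7 CPM in vehicle and 26.6, 36.4 and 99.9 CPM in esculetin libraries, a log2 fold change of 0.65 (SE 0.56, unadjusted p-value 0.272). Cyp4a32 made up 21.5%, 58.4% and 62.4% of this sum in vehicle and 44.2%, 27.0% and 21.5% in esculetin libraries (exact permutation p-value 0.4, two-sided).

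**Figure D3:**
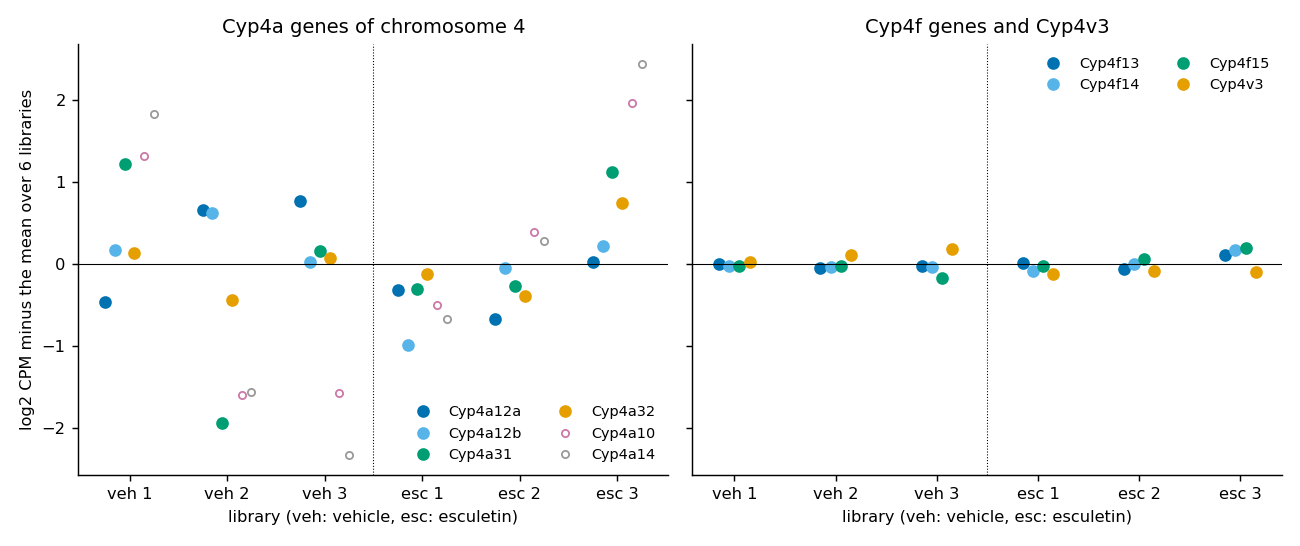
Log2 CPM of each gene minus its mean over the 6 libraries (vertical axis), for the Cyp4a genes (left, Cyp4a10 and Cyp4a14 as open circles) and for the Cyp4f genes and Cyp4v3 (right), in vehicle (veh) and esculetin (esc) libraries. Cyp4a10, Cyp4a14 and Cyp4a31 are high in vehicle replicate 1 and esculetin replicate 3, where Cyp4a12a is not at its highest, and the genes on the right stay close to 0.

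The Cyp4f members hydroxylate leukotrienes and long-chain fatty acids, and Cyp4f14 is also known for the omega-hydroxylation of vitamin E in the mouse. Cyp4f14 was at 233, 231 and 230 CPM in vehicle and 224, 237 and 267 CPM in esculetin libraries. Vehicle libraries lay within a narrow range that esculetin libraries straddled. Cyp4f14 had a log2 fold change of 0.068 (SE 0.083; 95% interval -0.12 to 0.25), and of -0.0039 without esculetin replicate 3.

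Cyp4f15 was at 113, 112 and 102 CPM in vehicle and 112, 119 and 131 CPM in esculetin libraries. Esculetin replicate 1 fell inside the vehicle range and the other two lay above it. The log2 fold change was 0.15 (SE 0.083; 95% interval -0.036 to 0.34), with an unadjusted p-value of 0.102. Cyp4f13 was at 56.4, 54.3 and 55.5 CPM in vehicle and 56.9, 53.8 and 60.9 CPM in esculetin libraries, with a log2 fold change of 0.046 (SE 0.075; 95% interval -0.12 to 0.21). For the 3 Cyp4f members the 95% intervals of the fold ran from 0.919 to 1.16, from 0.922 to 1.19 and from 0.976 to 1.26 (Cyp4f13, Cyp4f14 and Cyp4f15), all inside the 1.5-fold threshold.

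The proportions among the Cyp4f members were nearly constant. Cyp4f14 made up 56.9% to 59.4% of their counts in the 6 libraries, Cyp4f15 26.3% to 29.1% and Cyp4f13 13.1% to 14.5%. The share of Cyp4f15 was 27.5% ± 1.04 in vehicle and 28.8% ± 0.307 in esculetin libraries (SD, n = 3), every esculetin library lying above every vehicle library. The two-sided exact permutation p-value was 0.1, the smallest that 3 against 3 libraries allow, and it was 0.3 for Cyp4f14 and 0.5 for Cyp4f13.

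Cyp4v3, the mouse counterpart of human CYP4V2, a fatty acid hydroxylase whose loss causes a crystalline dystrophy of the retina, was the most abundant member. Its level was 600, 635 and 669 CPM in vehicle and 539, 553 and 549 CPM in esculetin libraries. All esculetin libraries lay below all vehicle libraries, as for 8.24% of all genes tested, and no other member separated the groups. The means were 635 ± 34.5 CPM and 547 ± 7.21 CPM (SD, n = 3). The log2 fold change was -0.21 (SE 0.075), a fold of 0.862 with a 95% interval from 0.768 to 0.968, with an unadjusted p-value of 0.0175 and an adjusted p-value of 0.309 in edgeR. The fold stayed short of the 1.5-fold threshold, so the gene was not called. With one library left out the log2 fold change ran from -0.25 to -0.17. As the tissue is bulk liver, fewer cells that express a gene and less RNA per cell cannot be told apart, for this gene and for the others.

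**Figure D4:**
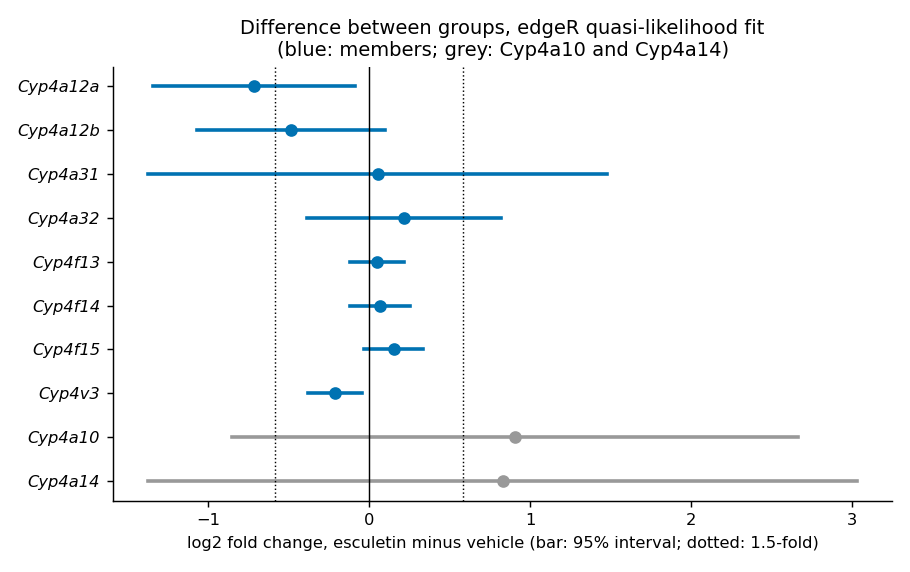
Log2 fold change of each member (blue) and of Cyp4a10 and Cyp4a14 (grey), esculetin minus vehicle, with 95% intervals from the edgeR fit, a solid line at 0 and dotted lines at 1.5-fold. The intervals of Cyp4a12a (-1.35 to -0.088) and Cyp4v3 (-0.38 to -0.047) lie below 0, and the Cyp4a intervals are wider than those of the Cyp4f genes and Cyp4v3.

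The spread between libraries of a group divided the members by subfamily. The biological coefficient of variation, edgeR's estimate of the spread beyond counting error, was 24.5% for Cyp4a12a, 22.8% for Cyp4a12b, 53.4% for Cyp4a31 and 23.4% for Cyp4a32. It was 8.36% for Cyp4f13, 9.60% for Cyp4f14, 9.26% for Cyp4f15 and 9.44% for Cyp4v3, while the median over all genes tested was 13.7%. The Cyp4a members thus lay above that median and the others below it. The highest library exceeded the lowest by 2.26-fold to 8.96-fold for the Cyp4a members and by 1.13-fold to 1.28-fold for the others.

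**Figure D5:**
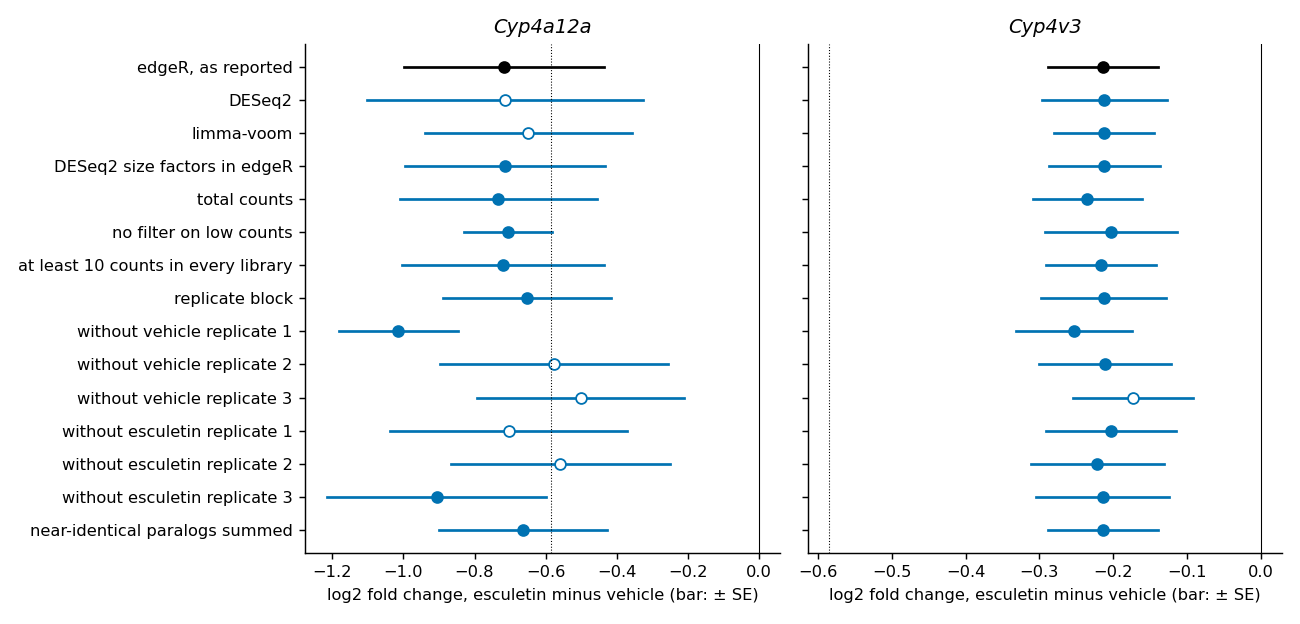
Log2 fold change (esculetin minus vehicle, bar ± SE) of Cyp4a12a (left) and Cyp4v3 (right) in each alternative analysis, with filled points for an unadjusted p-value under 0.05 and a dotted line at 1.5-fold. Cyp4a12a stays below 0 throughout, from -1.01 to -0.50, with 6 open points, and Cyp4v3 runs from -0.25 to -0.17 with 1 open point, that without vehicle replicate 3.

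Levels between genes were compared as CPM per kilobase of the canonical GENCODE transcript. In vehicle libraries the order was Cyp4v3 (166 CPM per kilobase), Cyp4a12a (82.2), Cyp4f15 (41.3), Cyp4f14 (40.5), Cyp4f13 (31.6), Cyp4a12b (23.2), Cyp4a32 (7.14) and Cyp4a31 (0.747). In this group the ranges of Cyp4f15 and Cyp4f14 overlapped, and no other neighbours in the order did. The esculetin libraries had the same order of means, with Cyp4v3 at 143, Cyp4a12a between 38.4 and 62.4 and Cyp4f15 at 45.8 CPM per kilobase. There the range of Cyp4a12a overlapped that of Cyp4f15, that of Cyp4f15 overlapped that of Cyp4f14, and that of Cyp4a12b overlapped that of Cyp4a32.

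The rest of the family was listed with Cyp4a10 and Cyp4a14. Of these 12 genes, 6 were tested, and Cyp4a29, Cyp4a30b, Cyp4f40 and Cyp4x1 had 0 counts in every library, so each was below the 3 counts per library that a count of 0 allows. Among those tested, Cyp4f18 was called higher, with 0 to 15 counts per library and a log2 fold change of 1.72 (SE 0.73, unadjusted p-value 0.0420), against 1.37% of all genes called higher. It passed the filter on low counts only through the esculetin libraries, where it is higher, so its call is not independent of the filter. Cyp4f16 and Cyp4f17 were at 1.58 to 2.84 CPM and 4.94 to 10.6 CPM, and were not called.

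Genes that act beside the members were counted in lists. Of 4 redox partners none was called, but every esculetin library lay above every vehicle library for Por and Cyb5a, as for 9.20% of all genes. Por, the reductase that supplies electrons to microsomal P450 enzymes, was at 232, 184 and 195 CPM in vehicle and 292, 273 and 304 CPM in esculetin libraries, a log2 fold change of 0.51 (SE 0.098, unadjusted p-value 0.000438, adjusted p-value 0.132). Cyb5a, the cytochrome b5 that assists some of them, was at 704 to 727 CPM and 839 to 943 CPM (log2 fold change 0.32, SE 0.077, unadjusted p-value 0.00194). Cyb5b and Cyb5r3 had log2 fold changes of -0.025 and 0.027.

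Of 20 genes for the steps after omega-hydroxylation, which oxidise the product, activate it, carry it into peroxisomes and shorten it there, 19 were tested and none was called. The median log2 fold change was 0.20 beside -0.0080 over all genes, 15 of 19 were above 0, where 48.5% of all genes were, and 3 of 19 had an unadjusted p-value under 0.05, where 11.9% of all genes had. Among them were Acaa1a, a peroxisomal thiolase (109 to 111 CPM in vehicle and 133 to 137 CPM in esculetin libraries; log2 fold change 0.30, adjusted p-value 0.152), and Adh1, an alcohol dehydrogenase (0.20, adjusted p-value 0.418).

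Of 15 genes that release or convert arachidonate, leukotrienes and their epoxides, 12 were tested and 1 was called higher, Dpep1, a dipeptidase that acts on leukotriene D4, at under 1 CPM in every library, against 1.37% of all genes called higher. The vehicle libraries alone would not have taken Dpep1 past the filter on low counts, so its call is not independent of the filter. Ephx1, the microsomal epoxide hydrolase, had a log2 fold change of 0.40 (unadjusted p-value 0.0427) with groups that overlapped. Of 6 genes for vitamin K and vitamin E, 1 was called higher, also against 1.37% of all genes, the quinone reductase Nqo1, at 4.46, 2.64 and 2.19 CPM in vehicle and 7.03, 9.66 and 7.35 CPM in esculetin libraries (log2 fold change 1.37, SE 0.26, adjusted p-value 0.132). Ttpa, which carries alpha-tocopherol in hepatocytes, was at 531 to 612 CPM and 666 to 750 CPM (log2 fold change 0.36, adjusted p-value 0.183).

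Cyp4a12a and Cyp4a12b are known to be higher in male than in female mouse liver, and 18 other genes with this known bias were tested. Of these, 6 were called lower and none higher, where 1.76% of all genes were called lower, and 11 had an unadjusted p-value under 0.05, where 11.9% of all genes had. None had an adjusted p-value under 0.05. The list was chosen with earlier results of these data known. Its genes were measured in the same 6 libraries, so these are not independent counts. The median log2 fold change was -0.36, beside -0.0080 over all genes, and the groups did not overlap for 4 of the 18, beside 17.4% of all genes. The 6 were C6, Elovl3, Mup1, Cyp7b1, Selenbp2 and Ugt2b38, and with one library left out between 5 and 7 were called lower. Selenbp2 was at 633, 1555 and 1650 CPM in vehicle and 695, 758 and 475 CPM in esculetin libraries, so vehicle replicate 1 lay inside the esculetin range, as for Cyp4a12a. Elovl3, a fatty acid elongase, was at 60.9 to 81.7 CPM in vehicle and 37.5 to 59.8 CPM in esculetin libraries, without overlap. The list summed to 25883 to 33502 CPM in vehicle and 26819 to 27730 CPM in esculetin libraries, with vehicle replicate 1 the lowest of all 6, so the summed levels of the groups overlapped. The part of these genes in the level of Cyp4a12a was not tested.

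Markers of liver zones and of other cells were also counted, and their calls stand beside 1.37% of all genes called higher and 1.76% called lower. Of 8 pericentral hepatocyte markers Axin2 was called lower (log2 fold change -0.87), Lgr5 had a log2 fold change of -0.48 (unadjusted p-value 0.0360), 3 were above 0, and the list median was -0.022. The list summed to 9239 to 10251 CPM in vehicle and 9986 to 11547 CPM in esculetin libraries, of which Cyp2e1 made up 6959 to 9277 CPM. Of 8 periportal markers none was called (8872 to 9323 CPM and 9357 to 10497 CPM). None of 8 Kupffer cell and macrophage markers was called (308 to 411 CPM and 316 to 324 CPM), with 1 of the 8 above 0, beside 48.5% of all genes, and every esculetin library below every vehicle library for 3, beside 8.24% of all genes. The 3 were Cd68 (log2 fold change -0.37, unadjusted p-value 0.0225), Csf1r and Timd4. None of 8 endothelial markers was called (238 to 289 CPM and 251 to 286 CPM). Of 8 stellate cell and fibroblast markers Des was called higher, at 1.72 to 3.43 CPM, while 5 of the 8 were below 0 with a list median of -0.11 (sums of 319 to 383 CPM and 285 to 377 CPM). Of 5 tested cholangiocyte markers Spp1 was called lower, while the other 4 were above 0 and the list median was 0.24. Spp1 held most of that list's sum (39.7 to 80.8 CPM and 30.7 to 45.9 CPM). Of 5 tested lymphocyte and neutrophil markers Cd79a and S100a9 were called higher, at sums of 3.47 to 4.01 CPM and 3.34 to 8.15 CPM, and Ly6g was at 0. The vehicle libraries alone would not have taken Cd79a past the filter on low counts, so its call too is not independent of the filter. Of 5 tested red blood cell markers Hba-a2 was called higher, at 0.749 to 2.15 CPM (sums of 127 to 155 CPM and 114 to 178 CPM). Alas2, at 83.1 to 93.1 CPM in vehicle and 75.4 to 75.8 CPM in esculetin libraries, was not called (log2 fold change -0.24, unadjusted p-value 0.00970). Every esculetin library lay below every vehicle library for Alas2, as for 8.24% of all genes. The other 4 tested red blood cell markers were above 0, and the list median was 0.24. Of 7 pancreas and adipose markers, 1 was tested and was not called, and Cpa1, Prss2, Pnlip and Lep were at 0. The part of these cells in the members' levels was not tested.

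The genes whose pattern was most like that of each member were named by Pearson's r of log2 CPM over the 6 libraries, among 7225 genes with a mean of at least 10 CPM. The libraries share depth and group, and r is given as a description. For Cyp4a12a they were Atg2b (0.9885), Sacm1l and Ppp2r5d, and for Cyp4a12b they were Huwe1 (0.9959), Mdfic and Ddx17. For Cyp4a32 they were Ptbp3 (0.9735), Pigg and Slc35b3. For Cyp4f13 they were Eps15 (0.9837), Arnt and Apool, for Cyp4f14 Sash1 (0.9672), Pkn2 and Ces2e, and for Cyp4f15 Bmpr1a (0.9928), Ndfip2 and Emc2. For Cyp4v3 they were Atm (0.9867), Zfp970 and Clp1. No gene was among the first 3 of 2 members. Cyp4a31, with a mean of 1.92 CPM, was not compared.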

How the data were processed

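Liver RNA was sequenced from 3 vehicle and 3 esculetin libraries of 2 mice each, and samples were grouped by their labels. The authors made libraries with an NEBNext Ultra kit, sequenced 150-base pairs, aligned them with HISAT2 2.2.1 to GRCm39 (the processing notes also list mm10), counted reads with featureCounts and deposited the raw counts per gene. Annotation release, strand setting and the handling of reads mapping to more than 1 gene are not given in the sources used here. Gene symbols, coordinates and sequences came from the GENCODE annotation and genome of GRCm39, which held 54749 of the 55357 identifiers.

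Genes were kept with filterByExpr, scaled with TMM and tested by quasi-likelihood in edgeR 4.0.16 (R 4.3.3), with group as the single term. The thresholds, a p-value under 0.05 and a fold over 1.5, are those of the study, which used limma. The p-value was taken unadjusted. Since no source ties libraries to shared animals or days, p-values measure the spread between these pooled libraries. The test was checked on simulated counts. Shares of counts were compared with a two-sided exact permutation test and have 95% Wilson intervals, which cover counting error only.

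The 8 members and the gene lists were chosen with earlier results of these data known. Named always were the members, Cyp4a10 and Cyp4a14. In other lists the called genes and up to 3 further with the smallest p-values could be named, and the 3 genes outside the family with the largest Pearson r for each member with a mean of at least 10 CPM. The values of 1 gene in these lists are not reported here. Selenbp2 and Elovl3 were picked for their values in every library after these were seen. Alternatives were DESeq2 1.42.0, limma-voom (limma 3.58.1), other scalings and filters, other fold thresholds, leaving out each library, a block for the replicate number, and summed paralogs. Leaving out libraries in the list of male-biased genes was added after the data were seen.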

Additional observations from a re-analysis of the deposited data

How the results depend on the processing

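The count of called members (1, Cyp4a12a) was 0 with DESeq2, with limma-voom and with a fold over 2, and 2 (Cyp4a12a and Cyp4v3) with no fold threshold. It ranged from 0 to 2 when each library was left out. The log2 fold change of Cyp4a12a was below 0 in all 14 alternatives but was no longer called in 6 of them. With DESeq2 (-0.71) and limma-voom (-0.65) the p-value rose above 0.05 while the fold stayed over 1.5, and the call was also lost without vehicle replicate 2, vehicle replicate 3, esculetin replicate 1 or esculetin replicate 2 (range with one library left out -1.01 to -0.50). With no filter on low counts 24638 genes were tested and the number of members with an adjusted p-value under 0.05 was 2 in place of 0 (Cyp4a12a, 2.62e-05, and Cyp4a12b, 0.0179), and 477 genes in place of 6 passed. DESeq2 gave 193. The cause was not tested. Cyp4a12b passed the call when summed with Cyp4a12a (-0.66), and ranged from -0.74 to -0.21 with one library left out. Directions turned for Cyp4a31 without vehicle replicate 2 (-0.44), vehicle replicate 3 (-0.0095) or esculetin replicate 3 (-0.58, range -0.58 to 0.91), for Cyp4a32 without esculetin replicate 3 (-0.20, range to 0.43) and for Cyp4f14 without esculetin replicate 3 (-0.0039, range to 0.12). Cyp4f13, Cyp4f15 and Cyp4v3 kept their direction and their side of the threshold in all 14 alternatives. The replicate numbers showed no sign of pairing the libraries (correlations of same-numbered deviations -0.069, -0.011 and 0.0027). With the replicate number as a block, 399 genes were called in place of 452, and 15 in place of 6 had an adjusted p-value under 0.05. The called member was again Cyp4a12a (-0.65). For Cyp4a12b the unadjusted p-value of edgeR was then 0.0377 in place of 0.0936, with a log2 fold change of -0.55, so it was not called. The depth limits Cyp4a31 most, with 13 counts in its lowest library.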
